A study of Homo sapiens with 118 samples.

Results

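The 9 members described here are enzymes of glycolysis that exist as liver and non-liver isoforms: the hexokinases HK1 and HK2, the phosphofructokinases PFKL and PFKP, the aldolases ALDOA and ALDOC, the pyruvate kinases PKM and PKLR, and the lactate dehydrogenase LDHA. They were chosen by name, as the rows of the count table whose gene symbol is 1 of these 9. Each matched 1 row (a detector probe, called a feature here), so that the members are 9 of 22069 features. The 118 libraries came from differentiated HepaRG cells (a human line of liver tumour origin that forms hepatocyte-like and biliary-like cells), profiled by TempO-Seq, in which pairs of probes hybridised to a transcript are ligated, amplified and sequenced. The cells had received 1 of 8 histone deacetylase inhibitors for 72 hours, renewed every 24 hours, at 5 concentrations, of which C1 was the lowest and C5 the highest. The highest concentration was 0.86 µM for apicidin, 3.9 µM for mocetinostat, 44 µM for tacedinaline, 0.084 µM for panobinostat, 94.5 µM for scriptaid, 23.5 µM for vorinostat and 1.5237 µM for trichostatin A. For valproic acid the dose label reads 3038, and its unit could not be settled from the labels. Steps between concentrations were uneven. In apicidin the label went from 0.041722 at C1 to 0.125167 at C2 and from 0.5 at C4 to 0.86 at C5. In valproic acid it went from 100.478 at C1 to 301.433 at C2 and from 2712.9 at C4 to 3038 at C5. Of 40 groups, 38 had 3 libraries, 1 from each of 3 HepaRG batches, and panobinostat C3 and trichostatin A C4 had 2. Scriptaid, tacedinaline and vorinostat lay on 1 plate and the other chemicals on another. Solvent-control libraries were not used here, so each concentration was compared with C1 of the same chemical, and a response already complete at C1 would be missed.

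Glycolysis converts glucose to pyruvate, and several of its steps are run by different gene products in liver and in other tissues. Hepatocytes use the liver type phosphofructokinase (PFKL) and the liver pyruvate kinase (PKLR). Many other tissues, fetal liver and tumours use the hexokinases HK1 and HK2, the platelet type PFKP, aldolases A and C, and PKM. LDHA reduces pyruvate to lactate. Histone deacetylases strip acetyl marks from histones, and their inhibitors leave chromatin more acetylated. Among the inhibitors used, apicidin is a cyclic peptide, mocetinostat and tacedinaline are benzamides, panobinostat, scriptaid, vorinostat and trichostatin A carry a hydroxamic acid group, and valproic acid is a branched short-chain fatty acid.

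The promoters of 3 members that rose together with ALDOA at C5 of scriptaid follow, to place their sequence beside their response. The sequences are RefSeq records of the assembly GRCh38.p14, each the 250 bases before a listed start, in the gene's own orientation, 5′ to 3′. Capitals mark the letters ACGTG, the core of the hypoxia response element and of many E-boxes, on either strand. On the other strand they read CACGT, and both overlap in CACGTG, which is counted as 1 match.
LDHA, upstream of the first of its 2 listed starts, chr11:18394313-18394562, plus strand: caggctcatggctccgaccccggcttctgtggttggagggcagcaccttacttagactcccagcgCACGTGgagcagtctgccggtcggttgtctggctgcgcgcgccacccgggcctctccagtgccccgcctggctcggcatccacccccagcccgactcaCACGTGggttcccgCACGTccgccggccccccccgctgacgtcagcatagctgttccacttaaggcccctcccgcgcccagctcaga
ALDOC, its only start in the promoter table, chr17:28576896-28577145, minus strand: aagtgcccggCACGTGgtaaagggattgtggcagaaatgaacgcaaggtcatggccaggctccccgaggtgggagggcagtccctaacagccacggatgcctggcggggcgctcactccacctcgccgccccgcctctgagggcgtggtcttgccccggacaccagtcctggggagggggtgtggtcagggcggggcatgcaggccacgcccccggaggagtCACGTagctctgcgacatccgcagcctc
PKM, its only start in the promoter table, chr15:72231191-72231440, minus strand: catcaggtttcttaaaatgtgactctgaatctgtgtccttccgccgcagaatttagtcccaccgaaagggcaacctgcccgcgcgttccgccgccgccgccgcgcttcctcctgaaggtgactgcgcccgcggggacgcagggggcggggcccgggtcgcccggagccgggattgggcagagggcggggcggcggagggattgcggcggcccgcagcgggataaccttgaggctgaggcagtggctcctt
This LDHA window held 3 matches (the window of its other start held 0), the ALDOC window 2 and the PKM window 0. Each of the 3 windows listed for ALDOA held 1 match. Of 35116 windows of this length over all genes, 18.5% held at least 1. Over all members 9 of 23 windows held a match, and 6 of the 9 members had such a window. These include HK2 (both of its windows), PFKP (1 of 4) and PKLR (1 of 2), of which HK2 and PFKP were not called at C5 of scriptaid and PKLR was not tested. HK1, PFKL and PKM had none. The PKM window lies inside the gene's annotated span, which ends at 72231591 on chromosome 15, so starts further upstream were not looked at. A match is a string of letters and was not tested as a site.

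Total counts per library ran from 1061359 to 5250260, with a median of 3702007. The abundant members were ALDOA, PKM and LDHA, with medians of 2483, 3311 and 955 counts per library. ALDOC had a median of 42 counts, PFKL 27, HK2 23 and PFKP 20. HK1 had a median of 4 counts and was at 0 in 27 libraries, and PKLR was at 0 in 84 of 118. These counts are not comparable between genes, since probes differ in efficiency, and every comparison below is of a feature with itself or of a ratio with itself. Values are in CPM (counts scaled to the TMM-adjusted library size). The hepatocyte markers ALB, APOA1, APOB, TTR, TF and SERPINA1 were detected in all libraries. Of the markers of other cell types, PTPRC, a leukocyte marker, was at 0 counts in all 118 libraries and EPCAM, a progenitor marker, at no more than 2. The biliary or progenitor markers SOX9 and SPP1, the stromal marker ACTA2 and the macrophage marker CD68 had more than 3 counts in all 118, and KRT19 and COL1A1 in 117. Scriptaid C4 replicate 3 (correlation with its group mates 0.851), mocetinostat C2 replicate 3 (0.891) and trichostatin A C1 replicate 3 (0.905) stood apart from their group mates, against a median of 0.957 over all libraries, and calls that changed without them are given beside the results.

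A feature was called when its edgeR adjusted p was under 0.05 and its fold change at least 1.5, so that a call is past the test in both respects. Statements that groups did or did not overlap describe the printed values only. The share of all features whose groups did not overlap was not worked out, so a lack of overlap does not stand in for a call. At C5 the members moved in opposite directions in different chemicals, and the feature that moved most widely was PKM, which was called higher in 5 of 8 chemicals. LDHA was called lower in 3 chemicals and higher in 1, ALDOC higher in 2 and lower in 1, ALDOA higher in 2, and PFKL lower in 2. HK1, HK2 and PFKP were not called at C5 in any chemical, and PKLR was too sparse to be tested.

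**Figure D1:**
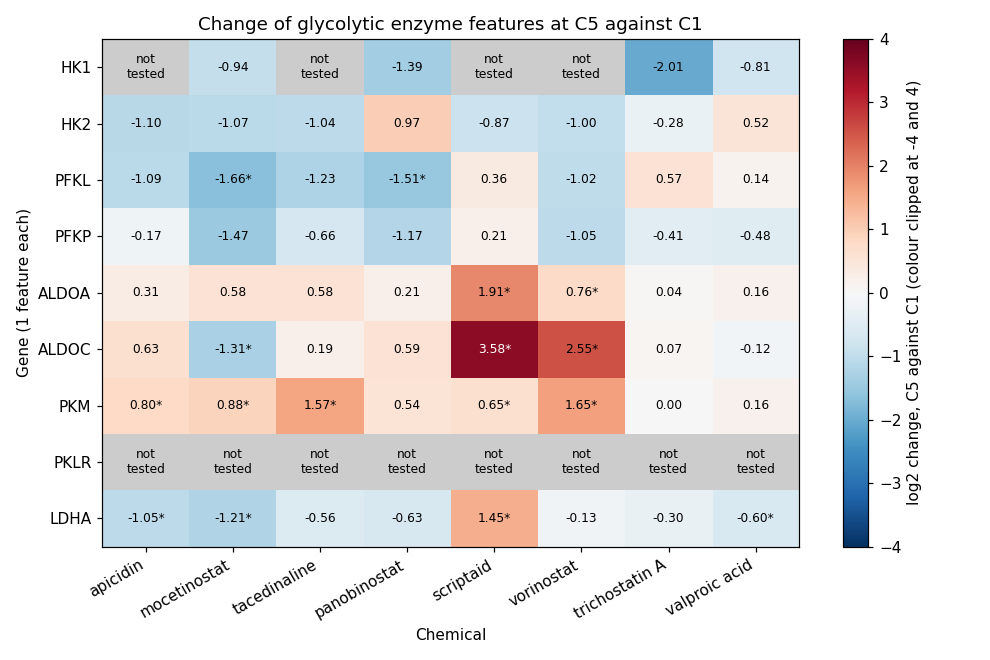
Log2 change from C1 to C5 for the 9 members (rows) in the 8 chemicals (columns), from 1 edgeR fit per chemical. An asterisk marks a call, and grey cells were not tested. PKM carries an asterisk in 5 columns, and LDHA carries one for a lower level in 3 and for a higher level only with scriptaid.

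Counts of called members are set here beside the share of all tested features called in the same comparison. With apicidin 1 of 7 tested members was called higher at C5 and 1 lower, beside 13.8% and 15% of all features tested. With mocetinostat it was 1 and 3 of 8, beside 14.8% and 15.7%. Panobinostat gave 0 and 1 of 8, beside 6.77% and 9.46%. Scriptaid had 4 higher and 0 lower of 7 members, the largest count of higher calls among the 8 chemicals, beside 12.8% and 17% of all features. Vorinostat followed with 3 and 0 of 7, beside 22.7% and 24.9%. Tacedinaline had 1 and 0 of 7, beside 18.7% and 20.1%. With valproic acid 0 members were called higher and 1 lower of 8, beside 4.84% and 6.22%. With trichostatin A edgeR called 0 of 8 members, of which 0 had an unadjusted p under 0.05 and 0 were called by DESeq2, and of all features 0% were called higher and 0.0154% lower. The share of members called higher lay well above that of all features in scriptaid, and in vorinostat it was above by more than 1 member. In the other chemicals it was within 1 member of it. For lower calls mocetinostat lay above the share of all features by more than 1 member, while scriptaid, tacedinaline and vorinostat had 0. Without 1 of the replicates the count of members called at C5 ran from 0 to 2 in mocetinostat (4 with all libraries) and from 2 to 4 in scriptaid. The median log2 change over the tested members was 0.65 in scriptaid and -1.14 in mocetinostat, beside medians of 0.01 and 0.08 over all features.

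The hexokinases phosphorylate glucose as it enters the cell. HK1, the widely expressed form, passed the filter on low counts in 4 chemicals (mocetinostat, panobinostat, trichostatin A and valproic acid), where its C5 changes ran from -2.01 to -0.81 on the log2 scale and none was called at any concentration. In scriptaid C5 its values were 0, 1.14 and 6.2 CPM, and in scriptaid C1 0.619, 0 and 2.04 CPM. These libraries overlap, and at a median of 4 counts a change of this feature was not detectable at this depth.

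HK2, an inducible hexokinase prominent in muscle and in tumours, was higher at the middle concentrations of scriptaid than at its lowest and highest. Its 3 libraries read 3.41, 7.44 and 16.3 CPM at C1 and 4.5, 10.4 and 14.5 CPM at C2. At C3 they read 25.7, 41.8 and 37.3 CPM, and at C4 57.1, 48.6 and 164 CPM. All libraries at C3 and C4 lay above those at C1 and C2. At C5 they read 4.62, 3.12 and 6.68 CPM, within or below the range at C1. The change against C1 was 3.35 ± 0.567 at C4 (log2 ± SE, edgeR adjusted p = 0.00188), 1.96 ± 0.547 at C3 (edgeR adjusted p = 0.0962, not called) and -0.87 ± 0.609 at C5 (edgeR adjusted p = 0.3). The highest value, 164 CPM, belongs to the replicate 3 library that stands apart, which had the fewest features of all libraries with at least 5 counts (10223). Without that library the C4 change was 2.53 (edgeR adjusted p = 0.000517), and the C3 change of 1.95 was called (edgeR adjusted p = 0.00445). Leaving out replicate 2 from all groups left 3.56, which was not called (edgeR adjusted p = 0.0995). In the other 7 chemicals the C5 changes of HK2 ran from -1.10 to 0.97 and none was called. Its only other call was a falling trend with mocetinostat, a fitted slope over log2 concentration that amounted to -1.19 ± 0.453 from C1 to C5 (edgeR adjusted p = 0.0474). That call ended with the replicate block, where the value was -1.18 (edgeR adjusted p = 0.0617), and without the C2 library that stands apart, where it was -1.13 (edgeR adjusted p = 0.0708).

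**Figure D2:**
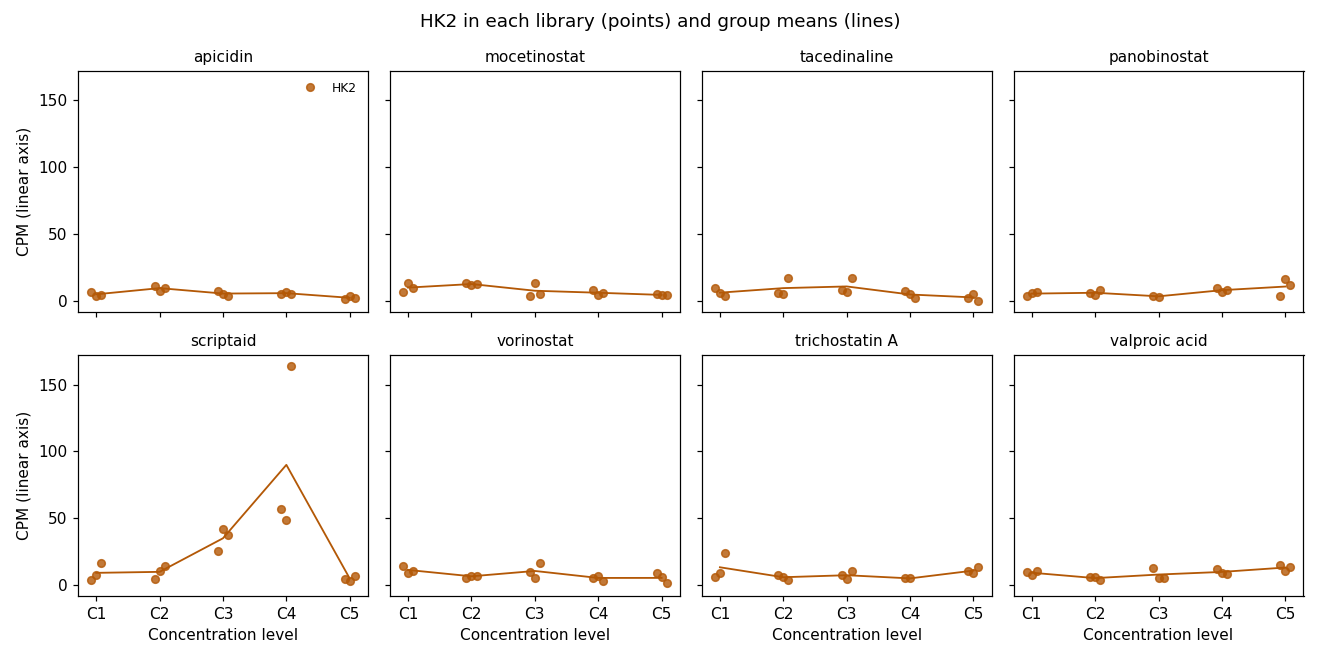
HK2 in CPM (linear axis) in each library at C1 to C5, in a panel per chemical, with lines through the group means. The 3 scriptaid libraries at C4 lie between 48.6 and 164 CPM and those at C5 between 3.12 and 6.68 CPM, while no library of another chemical exceeds 24.2 CPM.

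The phosphofructokinases make fructose 1,6-bisphosphate, the committed step of the pathway. PFKL, the liver type, read 11.6, 12.2 and 15.6 CPM at C1 of mocetinostat, 2.05, 2.01 and 1.09 CPM at C3 and 4.64, 2.57 and 4.55 CPM at C5. Every library at C3 and C5 lay below every library at C1. The feature fell by 2.89 ± 0.504 at C3 (edgeR adjusted p = 0.00115) and by 1.66 ± 0.469 at C5 (edgeR adjusted p = 0.0132) on the log2 scale. The C5 call ended without replicate 2 (edgeR adjusted p = 0.133) or replicate 3 (edgeR adjusted p = 0.0966). With panobinostat PFKL read 7.81, 8.12 and 8.81 CPM at C1 and 3.08, 2.91 and 2.74 CPM at C5, again without overlap. It fell by 1.51 ± 0.434 (edgeR adjusted p = 0.0187), a call that ended without any 1 of the replicates, with adjusted p-values of 0.0904 to 0.163 in edgeR. The other 6 chemicals gave C5 changes between -1.23 and 0.57, none of them called, although DESeq2 called the apicidin change (-1.10, adjusted p = 0.0468) and the edgeR model of all chemicals that of tacedinaline (-1.32, adjusted p = 0.0427). Without replicate 1 the tacedinaline change was -2.37 (edgeR adjusted p = 0.0112). With tacedinaline the trend of PFKL was called, at -1.30 ± 0.539 (edgeR adjusted p = 0.0491), and it was not called with the replicate block (edgeR adjusted p = 0.0742).

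PFKP, the platelet type, was the non-liver isoform of this step and was not called higher in any comparison. In mocetinostat it read 11.9, 9.52 and 10.5 CPM at C1 and 2.06, 5.65 and 3.03 CPM at C5. The groups did not overlap, and the C5 change of -1.47 ± 0.636 was not called in the fit of that chemical (edgeR adjusted p = 0.0913). It was called by DESeq2 (-1.54, adjusted p = 0.0407) and in the edgeR model of all chemicals (-1.56, adjusted p = 0.0294). Its trend fell by 1.48 ± 0.491 in mocetinostat (edgeR adjusted p = 0.0252) and by 1.24 ± 0.476 in vorinostat (edgeR adjusted p = 0.0342). Both trend calls ended in some of the fits without 1 replicate, with adjusted p-values up to 0.188 and 0.317 in edgeR. In vorinostat the C5 change of -1.05 was not called, and without replicate 3 it was -2.09 (edgeR adjusted p = 0.0243). The log2 ratio of PFKP to PFKL within a library overlapped between C1 and C5 in all 8 chemicals. Its mean change within HepaRG batches ran from -1.13 ± 2.52 (SD, n = 3) in trichostatin A to 1.05 ± 0.52 (SD, n = 3) in apicidin. The ratio was higher at C5 in 3 of 3 batches with apicidin (0.47 to 1.49) and in 0 of 3 with valproic acid (-0.96 to -0.19, mean -0.53 ± 0.39). The other 6 chemicals had batches in both directions. No test was run, since 3 pairs cannot reach 0.05.

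Aldolases split fructose 1,6-bisphosphate into triose phosphates. ALDOA, the muscle and general form, was called at C5 in scriptaid and vorinostat. With scriptaid its libraries read 627, 826 and 707 CPM at C1, 1320, 1190 and 2220 CPM at C4 and 1890, 2270 and 3540 CPM at C5. All libraries at C4 and C5 exceeded those at C1. ALDOA rose by 1.18 ± 0.298 at C4 (edgeR adjusted p = 0.0277) and by 1.91 ± 0.304 at C5 (edgeR adjusted p = 0.000125). The C4 value was 0.79 without the library that stands apart (edgeR adjusted p = 0.0208), and it was not called without replicate 1 (edgeR adjusted p = 0.209) or replicate 2 (edgeR adjusted p = 0.22). With vorinostat ALDOA read 652, 665 and 631 CPM at C1 and 882, 1010 and 1170 CPM at C5, a rise of 0.76 ± 0.146 (edgeR adjusted p = 5.41e-05). Its C5 change was 0.58 in both benzamides, with SE 0.177 in mocetinostat (edgeR adjusted p = 0.0202) and 0.119 in tacedinaline (edgeR adjusted p = 8.95e-05), past the test but short of the 1.5-fold limit. The remaining 4 chemicals gave changes of 0.04 to 0.31.

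ALDOC, the brain form, showed the largest rise of any member. With scriptaid its libraries read 7.12, 12.2 and 7.56 CPM at C1, 25.7, 36.7 and 36 CPM at C3 and 78.1, 87.2 and 145 CPM at C5. No library at C3 or C5 reached down into the C1 range. At C4 the values were 30.7, 22.8 and 7.3 CPM, the lowest being the library that stands apart. ALDOC rose by 1.87 ± 0.411 at C3 (edgeR adjusted p = 0.0254) and by 3.58 ± 0.427 at C5 (edgeR adjusted p = 6.68e-06), while the C4 change of 1.24 ± 0.416 was not called (edgeR adjusted p = 0.0968). Without the library that stands apart the C4 change was 1.54 ± 0.336 and was called (edgeR adjusted p = 0.00351). The C3 call ended without replicate 1 or 2, with adjusted p-values of 0.2 and 0.644 in edgeR. With vorinostat it read 7.82, 4.53 and 8.7 CPM at C1, 34.3, 28.9 and 35 CPM at C4 and 27, 44.7 and 40.1 CPM at C5. These groups did not overlap, and ALDOC rose by 2.29 ± 0.364 at C4 (edgeR adjusted p = 6.62e-06) and by 2.55 ± 0.368 at C5 (edgeR adjusted p = 5.92e-07).

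The benzamide mocetinostat moved ALDOC the other way. There it read 20.8, 12.9 and 21.3 CPM at C1 and 7.48, 6.16 and 7.27 CPM at C5. The groups did not overlap, and it fell by 1.31 ± 0.375 (edgeR adjusted p = 0.0143), although in each fit without 1 replicate the call was lost (adjusted p from 0.0774 to 0.093 in edgeR). With apicidin it read 7.97, 11.9 and 15.2 CPM at C1, 18.5, 25.4 and 24.9 CPM at C3, 22.2, 26.1 and 23.6 CPM at C4 and 9.94, 23.2 and 20.2 CPM at C5. It was called higher at C3 (0.98 ± 0.329, edgeR adjusted p = 0.0451) and C4 (1.05 ± 0.329, edgeR adjusted p = 0.0239), and at C5, where the groups overlapped again, it was not (0.63 ± 0.331, edgeR adjusted p = 0.163). Both apicidin calls ended without any 1 of the replicates and in the edgeR model of all chemicals, where the adjusted p-values were 0.134 and 0.0802. In the other 4 chemicals ALDOC changed by -0.12 to 0.59 at C5, without a call.

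**Figure D3:**
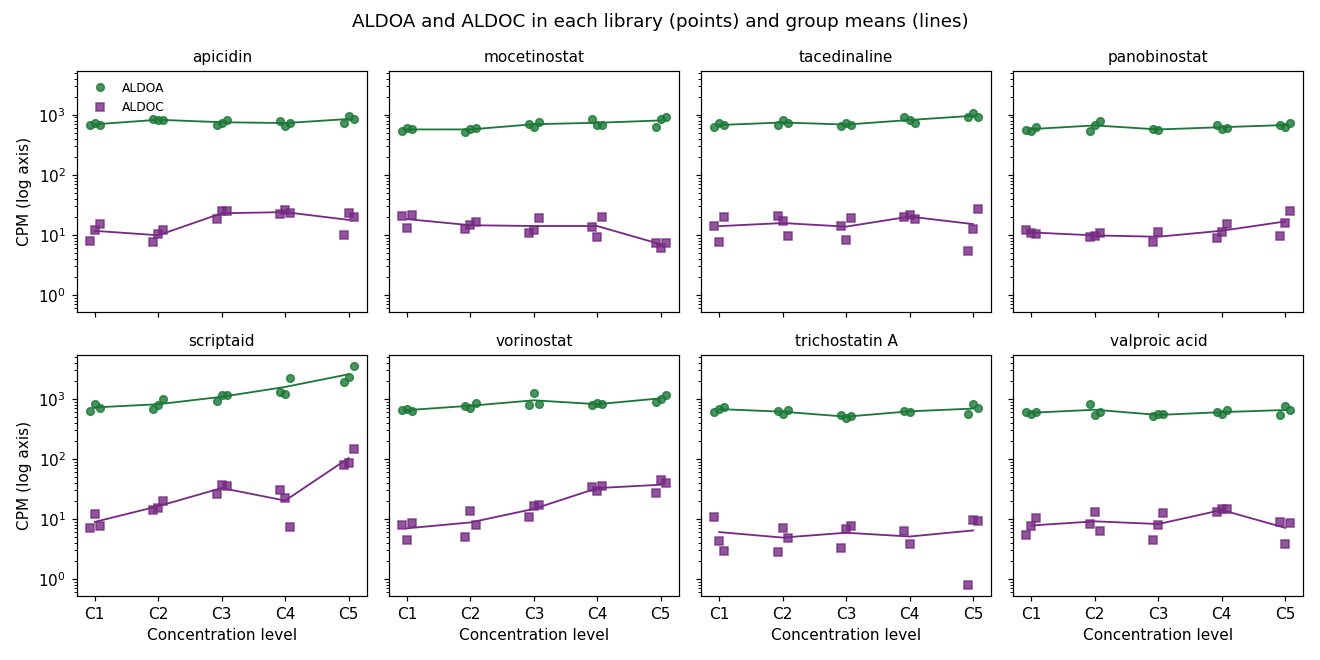
ALDOA (circles) and ALDOC (squares) in CPM (log axis) in each library at C1 to C5, in a panel per chemical, with lines through the group means. With scriptaid ALDOA reaches 1890 to 3540 CPM and ALDOC 78.1 to 145 CPM at C5, and with mocetinostat ALDOC is at 6.16 to 7.48 CPM there.

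Markers of hepatocytes were called lower at C5 in every chemical in which a member was called there. Of the 8 features of that list, 7 were called lower at C5 with apicidin, panobinostat and valproic acid, all 8 with mocetinostat, scriptaid, tacedinaline and vorinostat, and 0 with trichostatin A. Below C5 calls of markers and of members did not always go together. At C3 of vorinostat 5 of the 8 were called lower and 0 members were called, beside 7.06% of all features. There PKM (0.55, edgeR adjusted p = 0.00182) and ALDOA (0.58, edgeR adjusted p = 0.0105) missed only the fold limit. At C3 of scriptaid 0 of the 8 and 1 member were called, beside 1.34%. The median log2 change of the 8 was -0.82 at C3 of vorinostat and -1.12 at C3 of scriptaid. These calls therefore do not show that the levels parted. The summed level of the hepatocyte markers per group ran from 38100 to 55700 CPM at C1 and from 3680 CPM (tacedinaline) to 40200 CPM (trichostatin A) at C5. In trichostatin A the C1 libraries summed to 12900 to 52900 CPM. Biliary or progenitor markers summed to 69.3 to 119 CPM at C1 and 88.6 to 211 CPM at C5, stromal markers to 47.7 to 71.3 and 32 to 56 CPM, proliferation markers to 336 to 514 and 31.1 to 400 CPM, and the blood list, of which only CD68 was detected well enough to be tested, to 31.1 to 82.1 and 17.7 to 38.5 CPM. Of the 3 proliferation markers, all were called lower at C5 in 5 chemicals, 2 in tacedinaline, 1 in mocetinostat and 0 in trichostatin A. Biliary or progenitor markers were called higher at C5 in 7 of 8 chemicals, with 3 of 4 tested features in tacedinaline, 2 of 4 in apicidin and mocetinostat and 1 of 4 in panobinostat, scriptaid, valproic acid and vorinostat, and 0 were called lower. SPP1 rose by 3.34 in panobinostat and SOX9 by 1.85 in apicidin. KRT19, with 2 features, was called at C5 only in tacedinaline, and there by 1 of them (0.96, the other -0.25). In mocetinostat its features changed by -0.51 and -0.97 without a call. Among stromal markers COL3A1 and ACTA2 were called lower in those 7 chemicals and COL1A1 higher in 6 of them, all but mocetinostat. In scriptaid these changes were -3.09, -2.79 and 3.04. In trichostatin A no tested feature of these 2 lists was called (edgeR adjusted p = 0.261 to 0.964). In lysates of whole wells, fewer cells of a type and less RNA per cell cannot be told apart, and the part of cell composition in the changes described here was not tested.

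Pyruvate kinase makes pyruvate and ATP at the end of the pathway. PKM, the muscle and tumour type, rose in the largest number of chemicals, and the deposited table does not tell its splice forms apart. With tacedinaline it read 765, 797 and 847 CPM at C1, 1350, 1180 and 1160 CPM at C3, 1750, 2270 and 1830 CPM at C4 and 2280, 2290 and 2220 CPM at C5. No group from C3 on overlapped C1. The rise was 0.64 ± 0.111 at C3 (edgeR adjusted p = 3.47e-05), 1.33 ± 0.112 at C4 (edgeR adjusted p = 3.92e-13) and 1.57 ± 0.112 at C5 (edgeR adjusted p = 2.43e-15). Without replicate 1 the C3 change was 0.54 and under the fold limit. With vorinostat it read 734, 718 and 757 CPM at C1, 1700, 1880 and 1620 CPM at C4 and 1960, 2150 and 2320 CPM at C5. It rose by 1.28 ± 0.117 at C4 (edgeR adjusted p = 1.14e-10) and by 1.65 ± 0.118 at C5 (edgeR adjusted p = 1.33e-13). Its C3 libraries, at 1030, 1070 and 1060 CPM, already lay above those at C1, with a change of 0.55 ± 0.116 (edgeR adjusted p = 0.00182) that stayed under the 1.5-fold limit.

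With apicidin and mocetinostat the change of PKM against C1 was no larger at C5 than at C4. That step was from 0.5 to 0.86 µM in apicidin and from 2.5 to 3.9 µM in mocetinostat, and C5 was not tested against C3 or C4. The apicidin libraries read 798, 892 and 966 CPM at C1, 1440, 1670 and 1790 CPM at C3, 1430, 1930 and 1780 CPM at C4 and 1550, 1630 and 1420 CPM at C5. The changes were 0.89 at C3, 0.96 at C4 and 0.80 at C5, each with SE 0.14 or 0.141, and all 3 were called (edgeR adjusted p = 0.000162, 4.44e-05 and 0.00017). In mocetinostat PKM read 812, 881 and 894 CPM at C1 and 1390, 1620 and 1480 CPM at C5. It rose by 0.70 ± 0.171 at C3, 0.98 ± 0.171 at C4 and 0.88 ± 0.171 at C5 (edgeR adjusted p = 0.0125, 0.000559 and 0.000967). The C3 call ended without any 1 of the replicates, and the C5 call without replicate 2 (edgeR adjusted p = 0.0591).

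The rise of PKM in scriptaid was the least secure of the 5. It read 741, 892 and 890 CPM at C1 and 1300, 1240 and 1220 CPM at C5, without overlap, and rose by 0.65 ± 0.237 (edgeR adjusted p = 0.0462). Without replicate 1 (edgeR adjusted p = 0.352) or replicate 2 (edgeR adjusted p = 0.276), and without the filter on low counts (edgeR adjusted p = 0.166), it was not called. With panobinostat PKM read 777, 733 and 824 CPM at C1 and 1100, 1160 and 1160 CPM at C5. These groups did not overlap either, but the change of 0.54 ± 0.135 was below the 1.5-fold limit (edgeR adjusted p = 0.00759). Trichostatin A (0.00 ± 0.185) and valproic acid (0.16 ± 0.141) gave no call. In trichostatin A the C5 libraries, at 594, 990 and 894 CPM, spanned those at C1, at 823, 859 and 817 CPM.

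PKLR, the liver and red cell type of the same enzyme, could not be followed. Its feature had at most 11 counts, more than 3 counts in 15 of 118 libraries, and was filtered out in all 8 chemicals. At C5 it was at 0 in all libraries of 6 chemicals, and elsewhere it reached 1.26 CPM in 1 library of trichostatin A and 0.237 CPM in 1 library of valproic acid. At C1 the highest value was 2 CPM, in valproic acid. At C3 of vorinostat its libraries read 2.26, 1.76 and 2.64 CPM, and it was at 0 in all vorinostat libraries at C1, C4 and C5. A ratio of PKM to PKLR was therefore not formed, and a switch between the 2 was not detectable at this depth.

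LDHA takes pyruvate to lactate and was the only abundant member called in both directions. With apicidin it read 380, 394 and 426 CPM at C1, 239, 216 and 225 CPM at C3, 109, 267 and 237 CPM at C4 and 185, 203 and 186 CPM at C5. No library from C3 on reached the C1 range. LDHA fell by 0.82 ± 0.221 at C3 (edgeR adjusted p = 0.014), by 0.96 ± 0.222 at C4 (edgeR adjusted p = 0.00316) and by 1.05 ± 0.222 at C5 (edgeR adjusted p = 0.0011), and PKM rose at the same concentrations. The C3 call ended without replicate 2 or 3 (edgeR adjusted p = 0.117 and 0.198), the C4 call without replicate 3 (edgeR adjusted p = 0.0503). The C5 call was lost without replicate 3 (edgeR adjusted p = 0.05, log2 change -0.99). With mocetinostat LDHA read 518, 431 and 378 CPM at C1 and 102, 223 and 216 CPM at C5, and fell by 1.21 ± 0.394 (edgeR adjusted p = 0.0276). That call ended without replicate 1 (edgeR adjusted p = 0.0912) or replicate 2 (edgeR adjusted p = 0.126).

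In valproic acid LDHA was the only member called. Its level was 352 ± 63.7 CPM (SD, n = 3) at C1, and the libraries read 169, 229 and 139 CPM at C4 and 208, 223 and 260 CPM at C5, all below the lowest library at C1. The change was -0.96 ± 0.186 at C4 (edgeR adjusted p = 0.00129), and at C5 it was -0.60 ± 0.185 (edgeR adjusted p = 0.0366). The C5 call ended without any 1 of the replicates, with adjusted p-values of 0.0601 to 0.216 in edgeR, and in the edgeR model of all chemicals (adjusted p = 0.22). With tacedinaline LDHA was called lower at C4 (-0.59 ± 0.152, edgeR adjusted p = 0.00205), at -0.58 and thus under the fold limit with the replicate block (edgeR adjusted p = 0.0017), and the C5 change of -0.56 ± 0.153 was just under that limit (edgeR adjusted p = 0.0029). Without the filter on low counts it was -0.60 and called (edgeR adjusted p = 0.000454). The panobinostat change of -0.63 ± 0.22 was not called (edgeR adjusted p = 0.0502), and it was with the replicate block (-0.64, edgeR adjusted p = 0.033).

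Scriptaid was the exception. Its LDHA libraries read 362, 321 and 267 CPM at C1, 218, 246 and 73 CPM at C4 and 568, 652 and 1240 CPM at C5. The C4 libraries thus lay below and the C5 libraries above all those at C1. The C4 change was -0.78 ± 0.365 (edgeR adjusted p = 0.25), and LDHA rose by 1.45 ± 0.368 at C5 (edgeR adjusted p = 0.00594). The 73 CPM at C4 is the library that stands apart, without which the C4 change was -0.46 ± 0.255 (edgeR adjusted p = 0.306). The C5 call ended without replicate 2 (1.60, edgeR adjusted p = 0.0726). With vorinostat, where PKM rose by 1.65, LDHA read 236, 245 and 310 CPM at C1 and 219, 229 and 222 CPM at C5. The C5 libraries lay just below those at C1, a change of -0.13 ± 0.148 (edgeR adjusted p = 0.479). Between vorinostat and trichostatin A the C5 changes of LDHA differed by -0.07 (trichostatin A minus vorinostat, 95% interval -0.86 to 0.72).

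**Figure D4:**
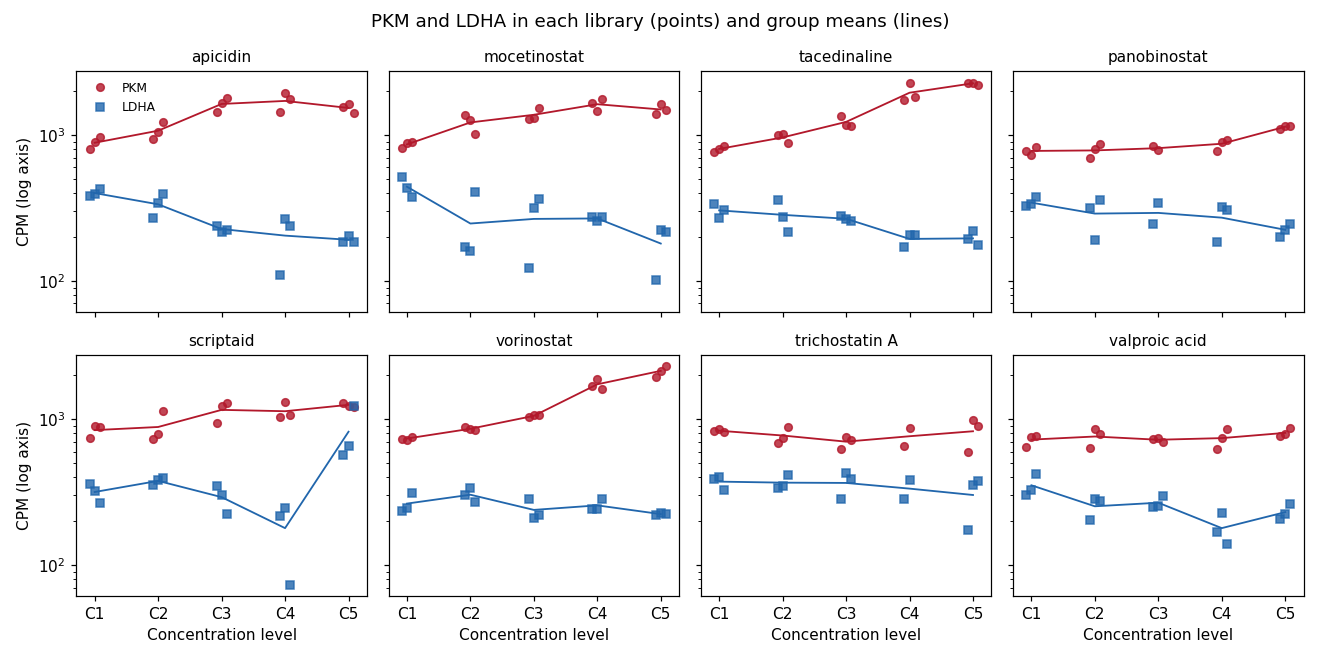
PKM (circles) and LDHA (squares) in CPM (log axis) in each library at C1 to C5, in a panel per chemical, with lines through the group means. PKM climbs to between 1960 and 2320 CPM with vorinostat while LDHA there lies between 219 and 229 CPM, and with scriptaid LDHA drops at C4 and reaches 568 to 1240 CPM at C5.

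Few members were called below C4, and 0 were called at C2 in any chemical by edgeR, where 6 of 60 tests of a member had an unadjusted p under 0.05. Without the mocetinostat C2 library that stands apart, LDHA (-1.31, edgeR adjusted p = 0.0105) and PKM (0.72, edgeR adjusted p = 0.00275) were called at C2 of mocetinostat. At C3 apicidin had 3 (ALDOC, PKM and LDHA), beside 15.3% of all features called in either direction, and mocetinostat had 2 (PFKL and PKM), beside 11.6%. Scriptaid had 1 (ALDOC; HK2 too without the library that stands apart), beside 1.34%, and tacedinaline 1 (PKM), beside 11.9%. The other 4 chemicals called no member at C3, where they called 0.00763% (panobinostat), 0% (trichostatin A), 7.06% (vorinostat) and 1.13% (valproic acid) of all features. At C4 the counts were 3 in apicidin (22.3% of all features), 1 in mocetinostat (23.7%), 2 in scriptaid (4.87%), 2 in tacedinaline (32.8%), 2 in vorinostat (32.3%) and 1 in valproic acid (11.9%). At C4 edgeR called 0 members with trichostatin A (0% of all features) and 0 with panobinostat (2.56%). The trend over all 5 concentrations called 5 members in mocetinostat (35.6% of all features), 4 in vorinostat (47.4%), 3 in apicidin (34.4%), 3 in scriptaid (13%), 3 in tacedinaline (43.3%), 1 in panobinostat (17.4%) and 1 in valproic acid (14.9%). Trichostatin A had 0 by trend, with 0.0616% of all features. Trend calls of members were more than the share of all features gives by 2 members in mocetinostat and scriptaid, and within 1 member of it in the other 6 chemicals.

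The changes from C1 to C5 were compared between all 28 pairs of chemicals in a single edgeR model, with p-values adjusted over all features and pairs. Doses were not matched, so each value compares responses over each chemical's own range and not potency. Scriptaid, tacedinaline and vorinostat lay on 1 plate and the other chemicals on another, each with its own C1. In a pair across plates, such as tacedinaline and mocetinostat, plate and chemical cannot be told apart. Of all tests, 8.02% had an adjusted p under 0.05. PKM passed in 16 pairs, ALDOC in 12, ALDOA in 7, LDHA in 7 and PFKL in 3, and HK1, HK2 and PFKP in 0. The 7 pairs of ALDOA and the 7 of LDHA were scriptaid against each other chemical. The difference of scriptaid from vorinostat, another hydroxamic acid, was 1.18 for ALDOA (95% interval 0.71 to 1.66, edgeR adjusted p = 0.000208) and 1.61 for LDHA (0.82 to 2.41, edgeR adjusted p = 0.00377), and for ALDOC it was 1.07 (-0.17 to 2.31, edgeR adjusted p = 0.362). PKM rose more in tacedinaline than in mocetinostat, both benzamides, by 0.70 (mocetinostat minus tacedinaline -0.70, -1.11 to -0.30, edgeR adjusted p = 0.018). For LDHA that pair differed by -0.66 (-1.45 to 0.13, edgeR adjusted p = 0.385) and for ALDOC by -1.51 (-2.75 to -0.27, edgeR adjusted p = 0.144). PKM in panobinostat and scriptaid differed by -0.02 (-0.43 to 0.38, edgeR adjusted p = 1).

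Other genes of the pathway were taken from a list of 49 features of enzymes, regulators, carriers and transcription factors, without TPI1 and GAPDH, which are not analysed here. At C5, mocetinostat called 3 higher and 16 lower of 39 tested features, beside 14.8% and 15.7% of all features. Scriptaid called 9 higher and 9 lower of 38, beside 12.8% and 17%. The median log2 change was -0.66 in mocetinostat and 0.26 in scriptaid, and the medians over all features were 0.08 and 0.01. Apicidin called 4 higher and 6 lower of 36, beside 13.8% and 15% of all features. Panobinostat called 3 and 4 of 38, beside 6.77% and 9.46%, and tacedinaline 4 and 7 of 35, beside 18.7% and 20.1%. Vorinostat called 6 and 8 of 32, beside 22.7% and 24.9%, and valproic acid 2 and 2 of 36, beside 4.84% and 6.22%. With trichostatin A edgeR called 0 of 37, of which 2 had an unadjusted p under 0.05. Over all of its features it had 2 calls at C5, and 1255 of 12993 had an unadjusted p under 0.05.

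Of the features called at C5 in at least 5 chemicals, 6 are described here. GCKR, which encodes a regulator of glucose phosphorylation in liver, fell in 7 of 8 chemicals at C5. In mocetinostat its C1 level was 83.5 ± 19.2 CPM (SD, n = 3) and its C5 level 2.26 ± 2.72 CPM, a change of -5.07 ± 0.566 (edgeR adjusted p = 5.1e-06). HNF4A, a master regulator of hepatocyte genes, fell in 6 chemicals, with changes of -4.59 in mocetinostat to -1.74 in panobinostat. SLC2A2, the liver glucose transporter, fell in 5, from 94.6 ± 7.21 to 3.76 ± 3.67 CPM in tacedinaline, and MLXIPL, the carbohydrate response factor, fell in 5, with changes of -1.73 to -0.70. In the other direction, PDP1, a phosphatase that activates pyruvate dehydrogenase, rose in 6 chemicals, with changes of 0.76 to 1.66. PDK4, the kinase that inactivates the same complex, rose in 5, with changes of 0.75 in vorinostat to 2.58 in scriptaid. In scriptaid PDK4 went from 89.7 ± 10.8 to 511 ± 246 CPM, and PDP1 from 34 ± 8.16 to 81 ± 44.7 CPM.

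The following genes were picked after their values were seen. In scriptaid 9 features of the list were called higher at C5 and 9 lower, of 38 tested. Among genes of the list that were not picked, SLC2A1 was called in 0 of 8 chemicals at C5. There the 2 features of ENO1 were called higher in 0, and PFKFB3 was called higher in 0 and lower in 2. In scriptaid, where ALDOA, ALDOC, PKM and LDHA rose, other enzymes and regulators called higher at C5 were PGK1, which makes ATP from bisphosphoglycerate (1.87 ± 0.377, edgeR adjusted p = 0.00103), GPI, which isomerises glucose 6-phosphate (1.19 ± 0.259, edgeR adjusted p = 0.00198), PFKFB4, which sets the level of fructose 2,6-bisphosphate (2.39 ± 0.579, edgeR adjusted p = 0.00426), and the kinase PDK1 (2.00 ± 0.442, edgeR adjusted p = 0.00216). In mocetinostat, where ALDOC, LDHA and PFKL fell, GPI (-1.31 ± 0.251, edgeR adjusted p = 0.000857) and PGK1 (-0.79 ± 0.215, edgeR adjusted p = 0.0102) were called lower. HIF1A, which encodes a hypoxia-inducible factor subunit, was called higher in apicidin (1.59), vorinostat, scriptaid (0.83) and panobinostat (0.80). ENO2 is the neuronal enolase. The feature of it that was tested had a median of 3 counts and passed the filter on low counts in 3 chemicals only. It was called higher at C5 in these, with changes of 4.31 in scriptaid, 4.09 in tacedinaline and 2.75 in mocetinostat. So sparse a feature can pass that filter through the groups where it is high, so calls in all 3 do not count as agreement between chemicals. At C5 of scriptaid that feature stood at 22.1 ± 18.1 CPM, against 1.07 ± 1.39 CPM at C1.

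**Figure D5:**
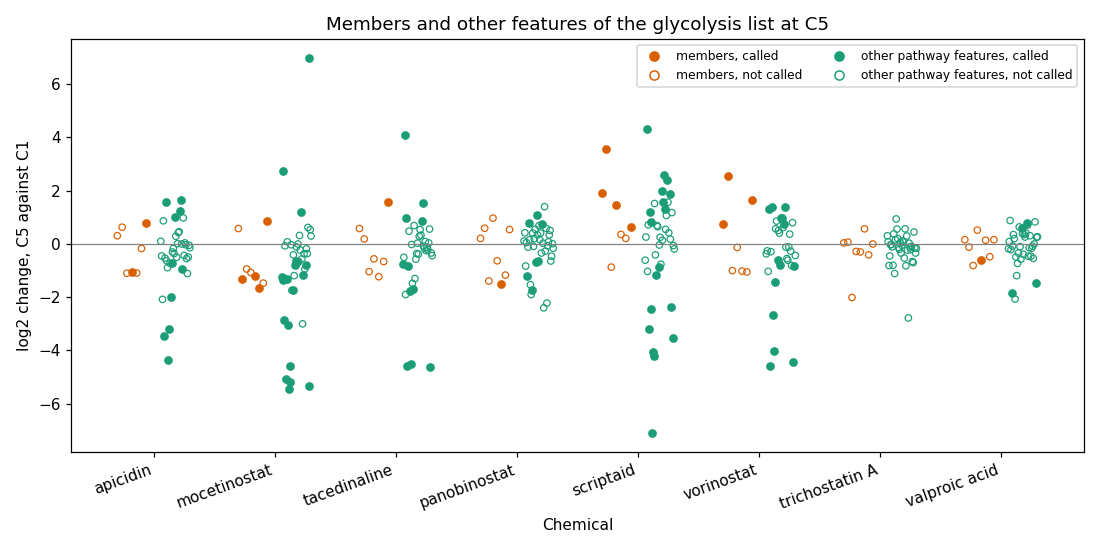
Log2 change from C1 to C5 in each chemical for the tested members (left of each pair of columns) and for the other tested features of the pathway list (right), with filled points called and open points not called. Scriptaid is the only chemical with 4 members called higher, and trichostatin A has no filled point.

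As a description of likeness, the log2 CPM of PKM, ALDOC and LDHA over the 40 group means was correlated with that of every other gene. The points share batches, plates and scaling, so the values carry no p. PKM was most like ASCC1 (Pearson's r = 0.939), KLF5 (0.927) and CAP1 (0.922). ALDOC was most like APEH (0.802), ATP5PD (0.792) and PGK1 (0.791), the last a glycolytic enzyme. LDHA was most like ECHS1 (0.76), GPI (0.751), another glycolytic enzyme, and DNAJB9 (0.691). PKLR was too sparse for such a comparison.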

How the data were processed

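The series measured gene expression by TempO-Seq in HepaRG cells. The authors deposited whole-number read counts per probe, without normalization. Per the submitters' processing notes, bcl2fastq 2.20.422, fastp 0.23.2, STAR 2.7.10b and DESeq2 1.38.0 were used, with no role given. The probe annotation and genome build are not given in the sources used here. The paper read for style describes another experiment, and no value or design was taken from it. Row names were stripped of padding spaces. Of 22069 rows, 1 lacked a value in 88 libraries and was left out.

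Groups were taken from the labels. Each chemical was fitted in R 4.3.3 with edgeR 4.0.16: filterByExpr, TMM scaling, a mean per concentration and quasi-likelihood tests of C2 to C5 against C1, and of a slope on log2 dose (trend). P-values were adjusted by Benjamini-Hochberg over all features tested in the chemical. A call needed both a fold of 1.5 or more and an adjusted p below 0.05. The SE of a log2 change was its size divided by the root of the F statistic, and 95% intervals take a normal distribution. Ratios were taken of counts plus a prior count of 2, scaled to library size. The script was tested on simulated data. Depth ran from 1061359 to 5250260 counts, and statements on a floor use 3 counts and cover counting error only, since these are PCR reads.

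The replicate numbers are HepaRG batches per the labels and so pair the samples. Deviations from group means correlated with a median of 0.023 in 232 same-batch pairs and -0.0109 in 464 others. Alternatives were the replicate block, DESeq2 1.42.0, RLE factors, no filter, 1 model of all chemicals, leaving out each replicate and, chosen after seeing the data, leaving out the library that stands apart. Members, gene lists and tests were chosen with earlier results of these data known. Named were all members, pathway features called at C5 in at least 5 chemicals, the 3 features most like a member, and genes stated as picked after their values were seen. Some features that this rule names are not reported here. Promoter windows come from RefSeq (GRCh38.p14), and all 9 members matched by symbol.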

Additional observations from a re-analysis of the deposited data

Results flagged for a closer look

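The change of ALDOC from C1 to C5 differed between chemicals that moved it in opposite directions. Scriptaid exceeded mocetinostat by 4.9 on the log2 scale (edgeR model of all libraries, adjusted p = 3.8e-09), and vorinostat exceeded mocetinostat by 3.82 (edgeR adjusted p = 5.29e-06). ALDOC was higher at C5 in 3 of 3 batches with scriptaid and vorinostat, and lower in 3 of 3 with mocetinostat.

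The change of LDHA differed in the same way between scriptaid, where it was called higher, and the 3 chemicals where it was called lower. The difference was 2.67 against mocetinostat (edgeR adjusted p = 4.12e-07), 2.44 against apicidin (edgeR adjusted p = 3.61e-06) and 1.98 against valproic acid (edgeR adjusted p = 0.000194). Doses were not matched between chemicals. Scriptaid and vorinostat lay on 1 plate and the other chemicals compared here on another, each with its own C1, so that plate and chemical cannot be told apart.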

How the results depend on the processing

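The ratio of PFKP to PFKL moved by less than 1 SD under every alternative run for it. For leaving out a replicate that outcome was fixed in advance, since 3 batches cannot give a larger shift. In those fits the change of the ratio ran from -0.49 to 0.69 in mocetinostat, -0.16 to 0.4 in panobinostat and -1.62 to 0.2 in scriptaid. It ran from -1.07 to 2.32 in tacedinaline, -2.01 to 0.31 in trichostatin A and -1.64 to 0.23 in vorinostat. Only apicidin and valproic acid kept its sign. Changes of over 1.5 times in the number of members called were as follows. At C5, panobinostat went from 1 to 2 with the replicate block and with DESeq2, tacedinaline from 1 to 2 without the filter and in the model of all chemicals, and valproic acid from 1 to 0 in that model. By trend, mocetinostat went from 5 to 3 without the library that stands apart, scriptaid from 3 to 5 and valproic acid from 1 to 0 in the model of all chemicals. Leaving out each replicate in turn gave 1 to 2 members at C5 in apicidin, 0 to 2 in mocetinostat, 0 to 1 in panobinostat, 2 to 4 in scriptaid, 2 to 2 in tacedinaline and 0 to 0 in valproic acid, and by trend 1 to 4 in mocetinostat, 0 to 1 in panobinostat and 0 to 1 in valproic acid. Changes of 1 member, within that limit, were at C5 apicidin from 2 to 3 (DESeq2), mocetinostat from 4 to 5 (DESeq2, the model of all chemicals) and scriptaid from 4 to 3 (RLE factors, no filter, the model of all chemicals). By trend they were mocetinostat from 5 to 4 (replicate block, the model of all chemicals) or 6 (DESeq2, RLE factors), scriptaid from 3 to 4 (DESeq2) or 2 (no filter), tacedinaline from 3 to 2 (replicate block, the model of all chemicals) or 4 (no filter), and vorinostat from 4 to 3 (no filter, the model of all chemicals). Fits without 1 replicate gave 3 to 4 at C5 in vorinostat, and by trend 2 to 3 in apicidin and scriptaid, 2 in tacedinaline and 3 to 4 in vorinostat. The LDHA trend in mocetinostat was -0.86 and not called without the library that stands apart (edgeR adjusted p = 0.0649). The replicate block changed, beside the calls given with the results, no other call at C5 or by trend.

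Signs of a member's log2 change that turned were all of values that were not called. In trichostatin A the C5 change of HK1 was 3.65 and that of HK2 0.49 without the library that stands apart, and that of ALDOC -0.26 there and -0.12 with the replicate block. Over the fits without 1 replicate, trichostatin A ranged from -0.59 to 0.32 for HK2, -0.71 to 1.51 for PFKL, -0.08 to 0.10 for ALDOA, -0.58 to 1.35 for ALDOC, -0.12 to 0.17 for PKM and -0.57 to 0.01 for LDHA. Likewise PFKP ranged from -0.39 to 0.06 in apicidin and -0.73 to 0.83 in scriptaid, PFKL from -0.03 to 0.61 in scriptaid and -0.07 to 0.31 in valproic acid, ALDOC from -0.10 to 0.57 in tacedinaline and -0.53 to 0.17 in valproic acid, and LDHA from -0.22 to 0.01 in vorinostat. The cause was not tested, beyond the smaller number of samples in such fits. Depth limits HK1 and PKLR most.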
